A study of Octopus bimaculoides with 95 samples.

Results

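The 150 genes described here were chosen as the pan-neural genes of the California octopus, Octopus bimaculoides. Each had a higher RNA level in most neural tissues than in most other tissues. These genes were chosen from the 17527 genes with a numeric ID in a table of 85 tissue transcriptomes, on measured values. The level of a gene in a tissue was the mean of log2(TPM + 1) over that tissue's libraries. TPM scales reads by transcript length and to a fixed total per library. The score of a gene was the lower quartile of its level over 21 neural tissues minus the upper quartile over 25 non-neural tissues. Genes at 5000 TPM or more in a neural tissue with 3 libraries were passed over, which removed 42 genes, 12 of them with a score as high as that of a member. The 150 highest scores among the remaining 17485 genes ran from 5.36 to 1.70 on the log2 scale, with a median of 2.34. The difference between neural and non-neural tissue is therefore the choice itself and is given as a description.

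Nervous tissue shares a set of RNAs across regions because every neuron needs machinery for excitability, axonal transport and the release and sensing of transmitters. Regions also differ, since each holds its own mixture of neuron types. In the octopus, the vertical lobe serves learning and memory, the optic lobes process vision, the stellate ganglia drive the mantle muscle, and the arm cords run the length of the arms, so much of the nervous system lies outside the central brain. The gene IDs carry no names or products in the files or in the reference table, so no role can be given to single members, and genes are named by ID with the prefix LOC.

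The labels name untreated tissues, with no treatment, mutant or strain compared; RNA was extracted from whole tissue, and single neurons were turned into cDNA without extraction. The plate table has 51 neural libraries of 21 tissues and 34 non-neural libraries of 25 tissues. Of the neural tissues, 15 have 3 libraries each. These are 5 parts of the vertical lobe, 6 other central lobes (subvertical, superior frontal, inferior frontal, dorsal basal, anterior superior buccal, and the remaining basal and subfrontal lobes), the medulla and the plexiform periphery of the optic lobe, and 2 peripheral tissues, the stellate ganglion and the proximal arm cord, near the crown where the arms meet. Another 6 neural tissues have 1 library each. Of the non-neural tissues, the retina and the auricle and ventricle of the branchial heart have 3 libraries, the anterior and posterior salivary glands and the chromatophores, the pigment organs of the skin, have 2, and 19 tissues have 1. A second table holds 10 libraries, 5 single neurons isolated from dissociated nervous tissue and 5 of whole nervous tissue. The labels do not say which libraries come from separate animals, and p-values therefore reflect variation from library to library, some of which may be technical.

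Depth differed widely. Reads recovered from the steps of the TPM values ranged from 34649 to 13370675 per plate library, with medians of 865256 in neural and 1893774 in non-neural libraries. Spike-in RNA added to the libraries took 1.27% to 94.1% of the deposited TPM. A single read of a member was worth a median of 0.445 TPM (median over libraries, then over members) and up to 91.8 TPM in the shallowest case, so a value of 0 in a shallow library is a weak limit. Of the 18 sequences in the table that carry a name, none scored as high as a member. The highest was Sp12, at 1.46, and 9 of the 18 were at 0 in every plate library, so the labelled tissues could not be checked against named markers beyond these.

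Some libraries stood apart, and the main results that rest on them are given with and without them where another library of the tissue remains. The library labelled stellate ganglion 1 held 481 TPM in members at a depth of 5572064 reads, and none of the 150 members reached its own neural lower quartile there. The library labelled right mediolateral vertical lobe 1 held 1286 TPM, with 94.1% spike-in and 97585 reads. In the other direction, the library labelled chromatophores 1 held 19412 TPM, with 117 members at or above their neural lower quartile, whereas chromatophores 2 held 432 TPM, with 0 such members. The optic gland held 21183 TPM and retina 3 held 7891 TPM. These 5 libraries are the ones set apart below.

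Summed over all members, neural libraries held between 481 and 39706 TPM (median 24150, n = 51), and non-neural libraries between 78.4 and 21183 TPM (median 508, n = 34). Without the libraries set apart, the 49 neural libraries held 13935 TPM or more and the 31 non-neural ones 6321 TPM or less, so the sums no longer overlapped. This is a property of the choice of genes and of the libraries set apart, which stood out by these same sums. The optic gland was left out too, although it has no other library. Members at 1 TPM or more numbered 50 to 150 in neural libraries (median 146) and 12 to 150 in non-neural libraries (median 54.5). In bulk tissue, fewer cells of a type and less RNA per cell cannot be told apart.

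**Figure D1:**
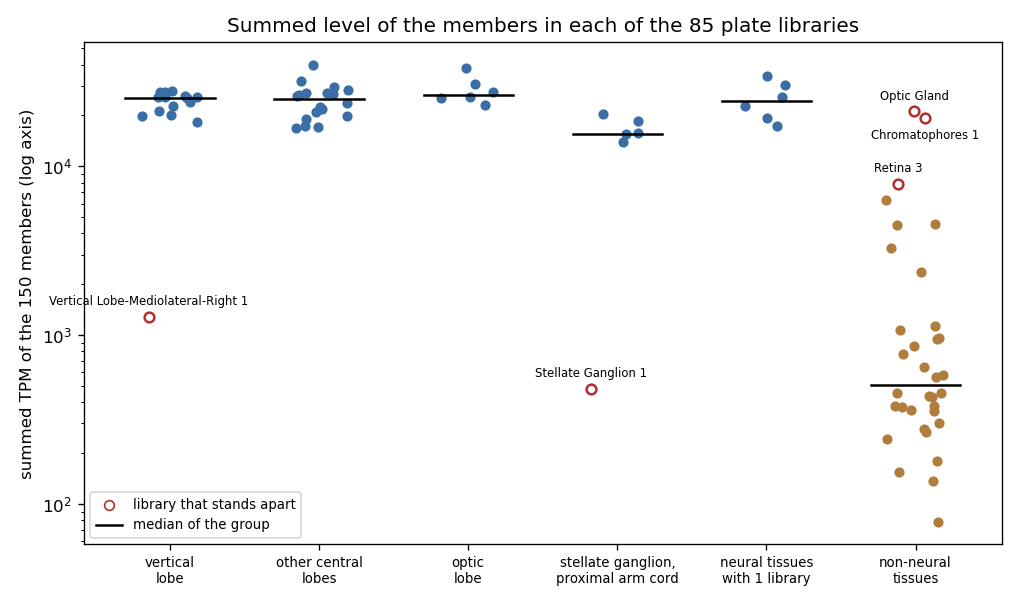
Summed TPM of the 150 members (log axis) in each of the 85 plate libraries, by group; black bars are medians and open red circles are the 5 libraries set apart. Neural groups lie between 13935 and 39706 TPM apart from 2 open circles, at 481 and 1286 TPM, and non-neural libraries have a median of 508 TPM.

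Single members separated the classes less well than their sum. With all libraries, 0 of 150 members had every neural library above every non-neural one. Without the libraries set apart, 2 members did, LOC106881802 and LOC106879196, and they were the only genes of the whole table to do so. Since the libraries left out stood out by their member levels, this separation is in part built in. LOC106881802 had at least 32.5 TPM in the 49 neural libraries and at most 31.0 TPM in the 31 non-neural ones, and LOC106879196 at least 317 TPM against at most 305 TPM. In both, the highest of those non-neural libraries was the hectocotylus, the male's modified mating arm. RNA of 54 members was found in all 51 neural libraries, and of 88 members in all 49. The shares over all genes or genes of like level were not counted, so these counts only describe the members.

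The gene with the highest score was LOC106876825. It had 1.70 to 503 TPM in neural libraries (median 102) and 0 to 205 TPM in non-neural libraries (median 0.521); its highest non-neural library was the optic gland, and without the libraries set apart the highest was retina 1. The second, LOC106874750, is a non-coding RNA, with 0.622 to 1558 TPM in neural libraries (median 290) and 0 to 253 TPM in non-neural libraries (median 1.58). The next 8 by score were LOC106875521, LOC106884495, LOC106882364, LOC106881802, LOC106872335, LOC106871385, LOC106882732 and LOC106871047. Their neural medians ran from 73.8 TPM for LOC106884495 to 255 TPM for LOC106875521, and their non-neural medians from 0.501 TPM for LOC106882732 to 2.71 TPM for LOC106872335. For all 10, the highest single non-neural library was chromatophores 1, the optic gland, retina 3 or, for LOC106882364, the ova.

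A high score did not go with the highest level. The 5 most abundant members by mean TPM over neural libraries were LOC106880967 (1294 ± 1673 TPM, SD, n = 51), LOC106879196 (1060 ± 409 TPM), the non-coding LOC106871846 (859 ± 1462 TPM) and LOC106868158 (763 ± 1279 TPM), and LOC106869047 (701 ± 807 TPM). They ranked 75, 74, 119, 118 and 56 by score. Of these, LOC106879196 had the smallest spread between neural libraries, and LOC106880967 reached 5980 TPM in the inferior buccal ganglion with a median of 224 TPM.

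At the edge of the list, LOC106868426 (score 1.71), LOC106867094 (1.70) and LOC106867241 (1.70) were the last members, and LOC106882185 (1.69), LOC106880461 (1.68) and LOC106884426 (1.68) were the first genes left out. The list has no gap at its edge.

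By tissue, members were highest in the optic lobe medulla, where the median member level was 6.29 (log2 scale), followed by the remaining basal and subfrontal lobes (5.98), the plexiform periphery of the optic lobe (5.62) and the anterior superior buccal lobe (5.59). They were lowest among neural tissues in the stellate ganglion (3.44), the inferior buccal ganglion (3.86), the posterior subesophageal lobe (4.16) and the right mediolateral vertical lobe (4.16). The stellate ganglion and right mediolateral vertical lobe each hold a library set apart. Without it their medians were 4.78 and 5.23, and neither was then among the lowest 4, which were the inferior buccal ganglion (3.86), the posterior subesophageal lobe (4.16), the proximal arm cord (4.34) and the olfactory lobe (4.43). The superior frontal lobe was the highest of all tissues for 22 members, more than any other tissue. These tissues also differed in depth. Medulla 1 and 2 had median member levels of 84.2 and 104 TPM at 219194 and 209961 reads. Medulla 3 had 53.0 TPM at 1779875 reads. In the remaining basal and subfrontal lobes the deepest library (1366352 reads) had 70.7 TPM, between the others at 53.7 and 75.8 TPM. The inferior buccal ganglion had 4791433 reads. The part of depth in the order of tissues was not tested.

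**Figure D2:**
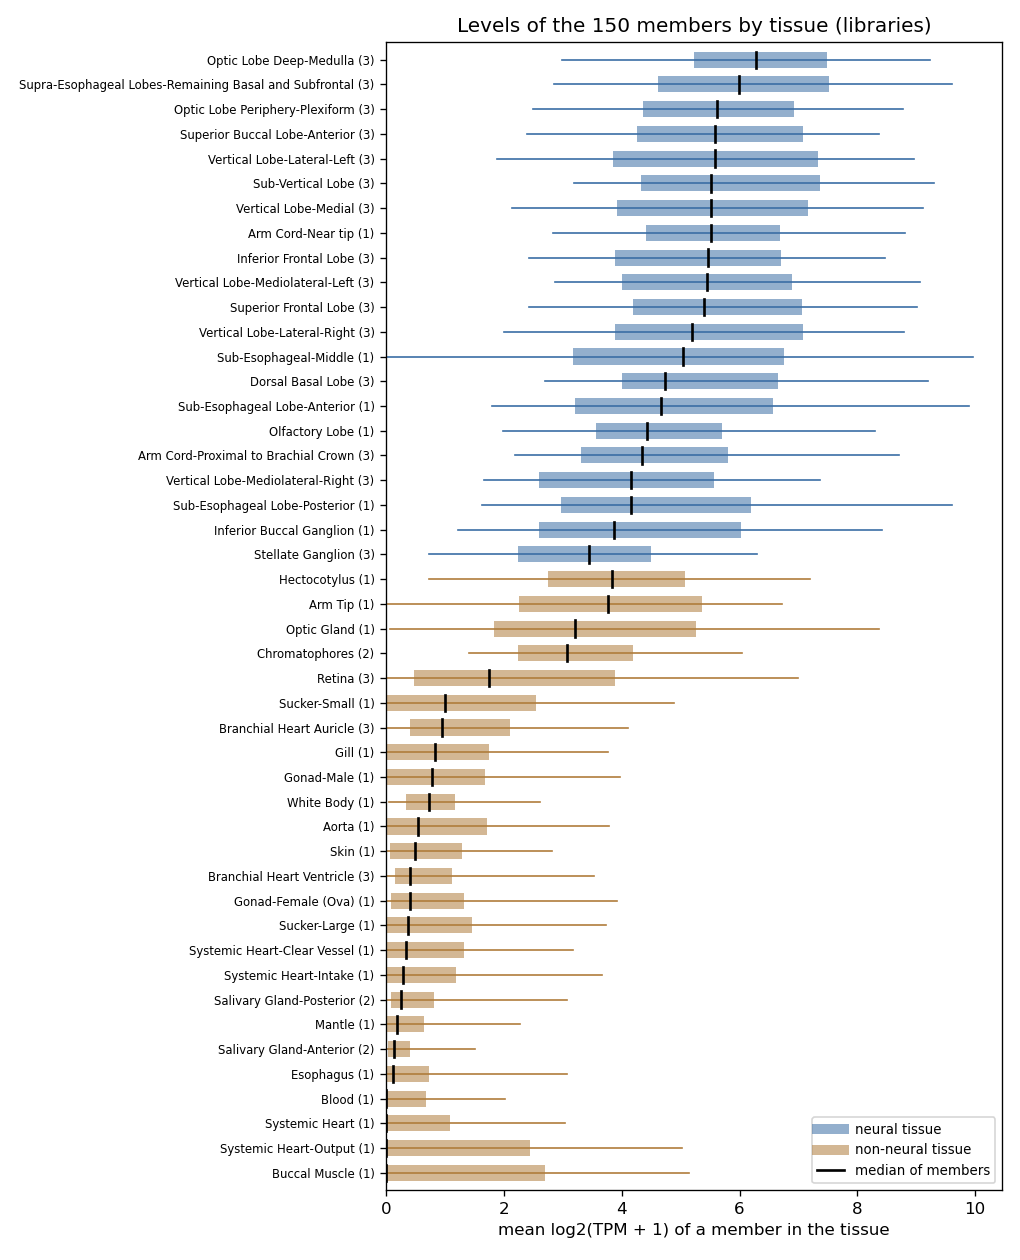
Levels of the 150 members (mean log2(TPM + 1) per tissue) in 21 neural tissues above 25 non-neural tissues; boxes are quartiles over members, lines the 5th to 95th percentiles, and the number of libraries is in brackets. All libraries are included; medians run from 6.29 to 3.44 in neural tissues, the stellate ganglion being at 4.78 without the library set apart, and the hectocotylus, at 3.83, leads the non-neural tissues.

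Outside the nervous system, members were highest in 5 tissues when all libraries were used. The median member level was 3.83 in the hectocotylus, 3.76 in the arm tip, 3.21 in the optic gland, an endocrine gland on the optic stalk, 3.06 in the chromatophores and 1.74 in the retina. In the other 20 tissues it was between 0 and 1.00. Without the libraries set apart the chromatophores were at 0.65, within the range of those 20 tissues, and the retina at 1.58; the optic gland has no other library. For 112 members the highest non-neural tissue was the optic gland, the arm tip or the hectocotylus. Each of those has 1 library, and how much nerve each sample held was not measured. Against the 20 other tissues alone, 53 members were higher in all 21 neural tissues than in any of the 20. The rule used these values, and the 5 tissues left out were those of highest member level, so this separation is in part built in. The share over all genes was not counted.

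A few members led the sum in the optic gland but not in the arm tip or hectocotylus. In the optic gland, 4 members made 70.7% of the sum: LOC106870833 (5858 TPM), LOC106873140 (4296 TPM), LOC106868158 (2513 TPM) and LOC106880967 (2314 TPM). Without them the optic gland held 6201 TPM in members, against 4501 TPM in the whole sum of the arm tip and 4540 TPM in the hectocotylus. In the arm tip and hectocotylus, by contrast, the leading member took 6.81% and 6.71% of the sum. Members at or above their neural lower quartile numbered 55 and 48 there. The optic gland had 46 such members, near the count of the hectocotylus.

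Within the 20 other tissues, 23 members reached their own neural lower quartile in at least 1, and no single tissue had more than 7 such members. Those 7 were in the ova, where LOC106882364 (928 TPM) and LOC106882418 (911 TPM) made 77.8% of the members' sum. LOC106882364 lies next to another member, LOC106882363, in the reference annotation, and the ova were also the highest non-neural library of LOC106882363, at 93.3 TPM. Over the 25 non-neural tissues, the members of highest mean level were LOC106868390 (mean level 5.60), LOC106874525 (5.42), LOC106879196 (5.23), LOC106873561 (5.14) and LOC106882418 (4.95). Each was above 0 in all 34 non-neural libraries with medians of 32.8 to 47.3 TPM there. Single libraries were far higher, with LOC106882418 at 911 TPM in the ova, LOC106879196 at 922 TPM in chromatophores 1 and LOC106868390 at 840 TPM in retina 3. Their neural medians were 301 to 1096 TPM.

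The choice bears on how members can vary within the nervous system. Only the lower quartile over the 21 neural tissues entered the score, so a member may be scarce in a few neural tissues, whereas a gene high in only a few could not be chosen. The counts and directions among neural regions below come from the same values and are read with that limit. Across the 15 neural tissues with 3 libraries, 53 of 150 members differed between tissues by limma's moderated F-test (adjusted p under 0.05 over all genes tested), which is 35.3% of members against 5.28% of all 13346 genes tested. Members lie above many of those genes in level. Without the 2 neural libraries set apart the count was 63 of 150, against 7.36% of all genes. With the style of the sample name in the labels as a covariate, a possible batch, it was 28, against 1.94%.

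The smallest F values belonged to LOC106875235 (F = 0.505), LOC106877870 (0.532) and LOC106867804 (0.591), whose adjusted p by limma were 0.946, 0.936 and 0.916. LOC106867804 had 9.40 to 104 TPM in neural libraries (median 44.8, n = 51) and spanned 1.22 log2 units over the 15 tissues, the narrowest span of any member. A high p does not show that a gene is even. For LOC106877870 the neural libraries ran from 0 to 244 TPM, and the F of LOC106875235 was 2.36 without the libraries set apart (adjusted p = 0.144 by limma).

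The largest F values belonged to LOC106882736 (F = 11.8, adjusted p = 6.77e-07 by limma), LOC106867946 (9.81, 3.94e-06) and LOC106869047 (9.39, 6.32e-06). Among the 15 tissues, LOC106882736 had its highest levels in the remaining basal and subfrontal lobes (8.57, log2 scale) and the plexiform periphery (8.42) and its lowest in the right mediolateral (1.83) and left lateral (1.89) vertical lobe. LOC106867946 ran between 11.50 in the optic lobe medulla and 1.54 in the superior frontal lobe. LOC106869047 was at 10.92 in the right lateral vertical lobe and at 4.48 in the stellate ganglion, and with label style as a covariate it was not called (adjusted p = 0.081 by limma).

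**Figure D3:**
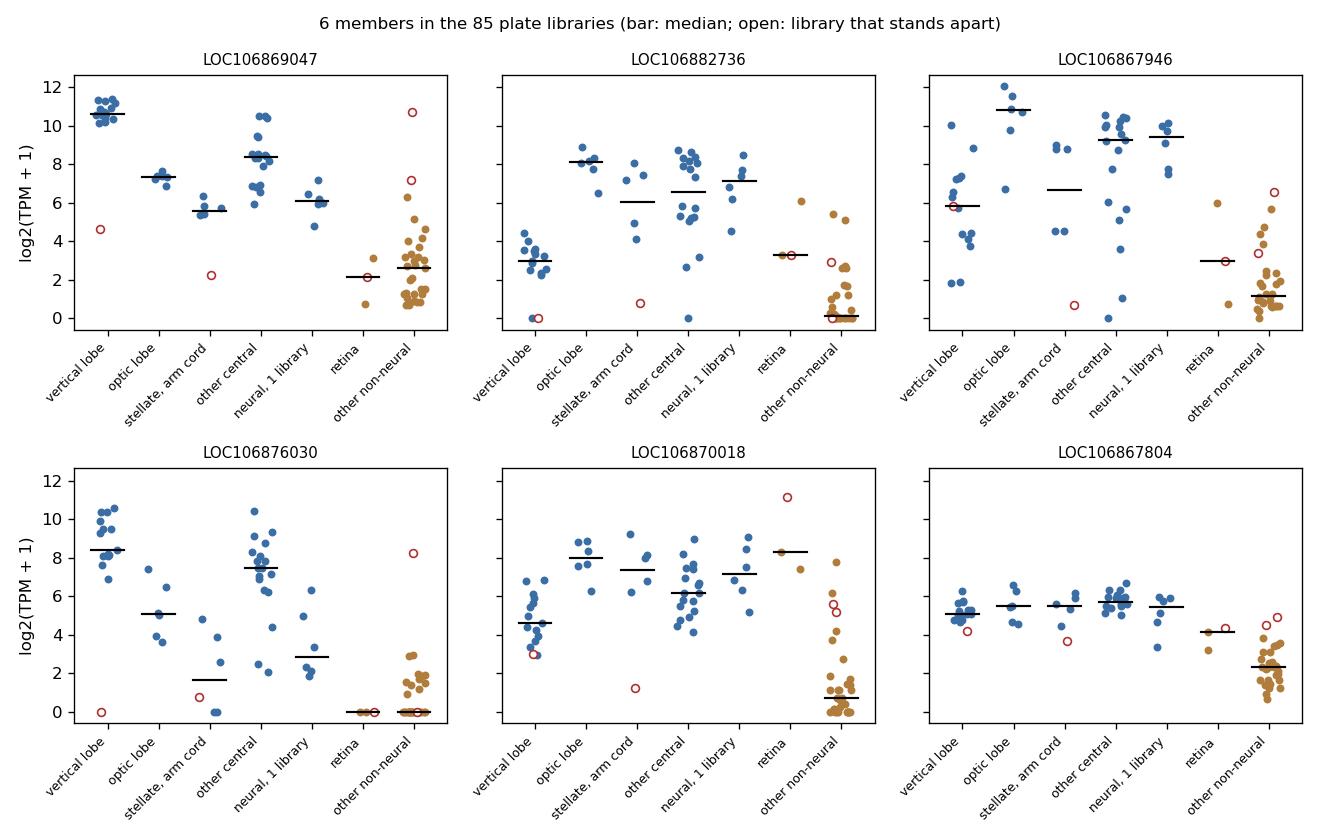
Level (log2(TPM + 1)) of 6 members in every plate library, by group; black bars are medians and open red circles the libraries set apart. LOC106869047 is high in vertical lobe and LOC106882736 low there, LOC106867946 is high in optic lobe, LOC106876030 is low in stellate ganglion and arm cord, LOC106870018 is high in retina, and LOC106867804 spans 1.22 log2 units over the neural tissues with 3 libraries.

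The vertical lobe, with 15 libraries of 5 parts, was compared with 18 libraries of the 6 other central lobes. By limma (adjusted p under 0.05 and a log2 difference of at least 1), 37 members were called, 12 higher and 25 lower in vertical lobe. That is 24.7% of members against 4.60% of all genes tested. By direction it is 8.00% of members against 2.14% of genes for higher calls, and 16.7% against 2.46% for lower ones. The score allows low levels in a few neural tissues, so lower calls may be favoured by the choice. Without the library set apart, 49 members were called, 23 higher and 26 lower, against 6.54% of all genes, and the median member difference was -0.04. With all libraries the median difference over all members was -0.30, and over all genes it was near 0 (-0.00097). With median ratio scaling the split was 9 higher and 31 lower, and among all called genes the share of higher calls was 28.1%, against 46.6% with the main scaling.

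Among members lower in vertical lobe, LOC106882736 had 0 to 20.8 TPM in vertical lobe libraries (median 6.95) and 0 to 431 TPM in the other central lobes (median 108). Its log2 difference was -3.46 (SE 0.44, adjusted p = 3.04e-06 by limma). LOC106874489 followed, with 0 to 73.7 TPM in vertical lobe (median 7.28) and 6.89 to 1595 TPM in the other lobes (median 76.3). Libraries of the other lobes were widely spread for both, at 162 ± 149 TPM (SD) for LOC106882736 and 375 ± 572 TPM for LOC106874489. The ranges of the groups overlapped.

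LOC106877962 was at 0 in 8 of 15 vertical lobe libraries, with at most 15.9 TPM, and above 0 in all 18 libraries of the other central lobes, at 1.72 to 49.1 TPM (log2 difference -2.86, SE 0.45, adjusted p = 4.96e-05 by limma). LOC106867823, LOC106867198 and LOC106870917 complete the 6 strongest, with log2 differences of -3.22, -3.03 and -2.72. All 6 remained lower without the library set apart, with log2 differences of -3.28 for LOC106882736 to -2.57 for LOC106870917.

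Among members higher in vertical lobe, LOC106868263 had 23.3 to 3338 TPM in vertical lobe libraries (median 327) and 0 to 283 TPM in the other central lobes (median 50.5), a log2 difference of 2.65 (SE 0.58, adjusted p = 0.003 by limma). LOC106869047 had 23.7 to 2736 TPM in vertical lobe (median 1543) and 60.6 to 1485 TPM in the other lobes (median 332). Its lowest vertical lobe value is from the library set apart; without that library the log2 difference was 2.43, against 2.01 with it. LOC106875129, LOC106867241, LOC106869569 and LOC106874532 had log2 differences between 2.04 and 2.61. LOC106869569 was uneven among the other lobes, where its 18 libraries ran from 0 to 2395 TPM, highest in the subvertical lobe.

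The sample names in the labels follow several styles, and the style moved with the region: 14 of 15 vertical lobe libraries had names with ObRNA or ObA, as had 8 of 18 libraries of the other central lobes. With the style as a covariate, 20 members were called, 0 higher and 20 lower, against 1.51% of all genes. Of all genes called in that fit 32.2% were higher, and the all-gene median was -0.18. Within the ObRNA style alone, with 9 vertical lobe libraries and 7 others, 1 member was called and 0.035% of all genes. Those 7 came only from the superior frontal, inferior frontal and subvertical lobes. The dorsal basal, anterior superior buccal, and remaining basal and subfrontal lobes had none. In this fit the lobes compared therefore changed together with the style. Of the 12 members named above, none passed within ObRNA. Of the 6 higher ones, none passed with the covariate either, where their log2 differences were 0.49 for LOC106869047 to 2.02 for LOC106868263. Within ObRNA those differences were 1.27 for LOC106874532 to 3.36 for LOC106868263, so the calls were lost there without a like loss in size for all of them: LOC106875129 was at 2.49, against 2.61 with all libraries. Of the 6 lower ones, 5 passed with the covariate and LOC106877962 did not (log2 difference -2.55, adjusted p = 0.08 by limma). Within ObRNA, with adjusted p of 0.316 to 0.787 by limma, LOC106882736 was at -0.99, LOC106870917 at -0.92 and LOC106874489 at -2.77.

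The optic lobe, with 3 libraries each of medulla and plexiform periphery, was compared with the central lobes, the vertical lobe counting as 1 of 7. By limma, 5 members were called, 4 higher and 1 lower, which is 3.33% of members against 1.20% of all genes tested (1.06% called higher and 0.142% lower). The median member difference was 0.40, against 0.08 for all genes. Without the libraries set apart, 10 members were called, 7 higher and 3 lower, against 1.44% of all genes. Style moved with region here too. No optic lobe library had a name with ObRNA or ObA, whereas most central lobe libraries had. With style as a covariate, 2 members were called, both higher, against 0.262% of all genes.

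LOC106869637 kept its call in all 60 alternative fits. It had 46.0 to 170 TPM in the 6 optic lobe libraries (median 87.8) and 0 to 49.8 TPM in the 33 libraries of the central lobes (median 8.71), a log2 difference of 2.79 (SE 0.58, adjusted p = 0.0041 by limma). LOC106878983 reached 235 TPM in optic lobe (median 59.9) and 0 to 49.5 TPM in the central lobes (median 5.53), a log2 difference of 3.13 (SE 0.69, adjusted p = 0.0083 by limma); it was not called without plexiform periphery 1 or without medulla 2. In both genes only the low end of the optic lobe values reached into the central range.

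LOC106867946 had 104 to 4252 TPM in optic lobe (median 1797), the 3 medulla libraries being the highest of the 6, and 0 to 1532 TPM in the central lobes (median 149), a log2 difference of 2.91 (adjusted p = 0.0305 by limma). LOC106882736 had 90.3 to 470 TPM in optic lobe and 0 to 431 TPM in the central lobes, a log2 difference of 2.25 (adjusted p = 0.0382 by limma), and the central value includes the low vertical lobe. LOC106881650 was the 1 lower member, with 2.22 to 13.7 TPM in optic lobe and 0 to 191 TPM in the central lobes (log2 difference -2.37, adjusted p = 0.0375 by limma). These 3 calls were close to the threshold: LOC106867946 lost its call in 11 of 60 alternative fits, LOC106882736 in 17 and LOC106881650 in 17. All 3 were lost with label style as a covariate.

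The stellate ganglion and proximal arm cord, with 3 libraries each, were compared with the same central lobes. By limma, 36 members were called, and all 36 were lower in the peripheral tissues; this is 24.0% of members, against 1.18% of all genes called lower, 2.67% called higher and 3.85% in either direction. The median member difference was -1.53, against -0.15 over all genes, and 136 of 150 members had a difference below 0. Only the lower quartile over neural tissues entered the score, so a member could be low in both peripheral tissues. It could not be low in most central lobes, so the direction is in part fixed by the choice. With only stellate ganglion 1 left out, 17 members were called, 16 lower and 1 higher, against 2.66% of all genes. Without arm cord 3 it was 20, all lower, against 2.34%. Without both neural libraries set apart, 29 were lower and 1 higher, against 3.84%, and the median member difference was -0.95, against -0.28 over all genes.

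LOC106876030 had the largest difference. Its 6 peripheral libraries held 0 to 27.4 TPM (median 2.82), at 0 in stellate ganglion 2 and arm cord 2, and the 33 central libraries held 0 to 1576 TPM (median 275), a log2 difference of -5.25 (SE 0.90, adjusted p = 0.000232 by limma). LOC106869532 had 0 to 23.8 TPM in the peripheral libraries (median 5.42) and 4.03 to 1962 TPM in the central ones (median 126), a log2 difference of -4.50 (adjusted p = 6.18e-05 by limma). In both genes nearly the whole peripheral range lay at the low end of the central one.

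LOC106873001 was low in all 3 stellate ganglion libraries, at 0.628, 1.36 and 12.5 TPM, and higher in the 3 arm cord libraries, at 66.1, 71.6 and 51.8 TPM, with a central median of 393 TPM (log2 difference -4.19, adjusted p = 9.95e-06 by limma). LOC106869047, LOC106867241 and LOC106869569, which were higher in vertical lobe, had log2 differences of -3.47, -3.36 and -3.29 here. The central mean of this comparison includes the vertical lobe, so the comparisons share libraries. Without stellate ganglion 1 the log2 differences of these 6 genes ran from -4.98 for LOC106876030 to -2.92 for LOC106869047, and each was still called. LOC106869532 kept its call in all 60 alternative fits.

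Style and region also moved together here: 5 of 6 peripheral libraries had names of the style that begins with a 4-digit number, against 9 of 33 central ones. With style as a covariate, 1 member was called, LOC106869532 (log2 difference -4.43, adjusted p = 0.0377 by limma), and 0.27% of all genes.

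**Figure D4:**
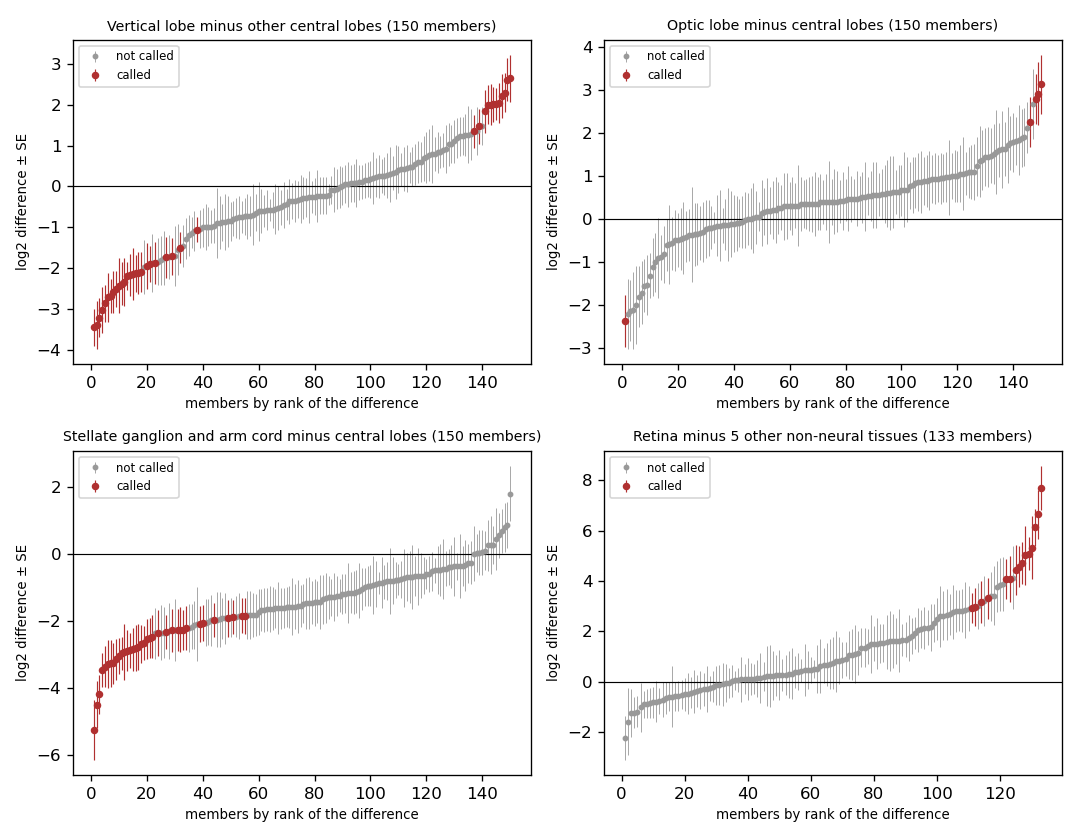
Log2 difference ± SE of each member, ranked, in 4 comparisons; red marks members called by limma at an adjusted p under 0.05 and a log2 difference of at least 1. Called members number 37 in vertical lobe (12 higher, 25 lower), 5 in optic lobe (4 higher, 1 lower), 36 in peripheral tissue (all lower) and 15 in retina (all higher).

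The retina is a sense organ that holds photoreceptor cells, and the rule counted it as non-neural. It was compared with 5 other non-neural tissues (12 libraries), where 133 of the 150 members were high enough to be tested, at 1 TPM or more in at least 2 of the 15 libraries. By limma, 15 members were called and all 15 were higher in retina, 11.3% of those tested, against 3.17% of all 12611 genes called higher, 0.214% lower and 3.39% in either direction. The median difference of the tested members was 0.74, against 0.12 over all genes tested. Members were chosen for lower levels in most non-neural tissues than in most neural ones. They could pass this filter through the retina libraries alone, so the direction is in part fixed by the choice. With no filter, 10 of 150 members were called, against 2.36% of all genes, and the median member difference was 0.47. With median ratio scaling the all-gene median was -0.39 and that of members 0.40; 10 members were called, all higher, and higher calls made 71.2% of all called genes, against 93.7% with the main scaling. The groups did not overlap for 5 of the 15: LOC106870018, LOC106869637, LOC106868873, LOC106882736 and LOC106867245. Of all genes tested, 1.51% were called higher with no overlap.

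LOC106870018 had 315, 169 and 2319 TPM in retina 1, 2 and 3, and 0 to 35.1 TPM in the other 12 libraries (median 0.899), a log2 difference of 7.69 (SE 0.88, adjusted p = 5.81e-05 by limma). LOC106868873 had 625, 244 and 97.8 TPM in retina 1, 2 and 3 and 0 to 56.7 TPM in the others (median 1.40), and LOC106869637 had 29.0, 33.2 and 99.6 TPM in retina and 0 to 10.1 TPM in the others (median 0). Their log2 differences were 6.13 (adjusted p = 0.000109 by limma) and 5.09 (0.000215). The retina values of LOC106870018 span more than 10-fold, with retina 3 the highest.

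LOC106867703 had 1036, 791 and 480 TPM in retina and 0 to 591 TPM in the others (median 4.90; log2 difference 6.65, adjusted p = 0.000665 by limma). For LOC106868937 and LOC106871047, with log2 differences of 5.33 and 5.01, the library labelled chromatophores 1 was above some or all of the retina libraries, at 1438 and 275 TPM. Chromatophores 1 was the highest of the 12 other libraries for all 6 of the members named. Without chromatophores 1, 42 of 118 members tested were called, all higher in retina, against 6.19% of all genes. Without chromatophores 2, 22 were higher and 4 lower, against 3.99%. Without retina 3, 8 were called, against 2.63%, and without chromatophores 1 and retina 3 it was 33, against 4.80%. LOC106870018, LOC106867703, LOC106868873 and LOC106869637 kept their calls in all 27 alternative fits. Of the 3 retina libraries, 2 have a label style that none of the other 12 libraries has, so for them style and tissue cannot be told apart.

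The second table was not used to choose the members and has no non-neural library, so it shows whether the members' RNA was found again in other nervous samples and in single neurons. In whole tissue, 149 of 150 members were above 0 in all 5 libraries, 99.3% of members. Among 5894 other genes with a mean neural plate level no lower than the lowest member's, the share was 98.8%. The exception was LOC106869532, listed at 0 in the stellate ganglion, at 6.96 TPM in the brachial ganglion and at 1195 and 2371 TPM in the whole vertical lobe. Its single neurons did not follow the same order, with 33.3 TPM in the stellate ganglion neuron and 0 in the amacrine neuron of the vertical lobe. These are single libraries and were not tested.

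Each single neuron is 1 cell and 1 library. In the 5 neurons, 86 members were above 0 in every one, 57.3% of members, against 40.7% of those 5894 genes and 20.7% of all genes. The 5894 genes share only a lowest level with the members and are not matched to them in level. Members at 1 TPM or more made up 90.7% in the neuron of the plexiform periphery, 88.7% in the large efferent neuron of the vertical lobe and in the medulla neuron, 82.7% in the amacrine neuron of the vertical lobe and 72.0% in the stellate ganglion neuron. The matching shares of all genes were 77.1%, 51.5%, 74.3%, 36.0% and 43.0%. In the 2 optic lobe neurons most genes of any kind were at 1 TPM, so the members' share there says less. The summed TPM of members was 8348 to 33282 in the neurons and 9607 to 44880 in whole tissue.

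**Figure D5:**
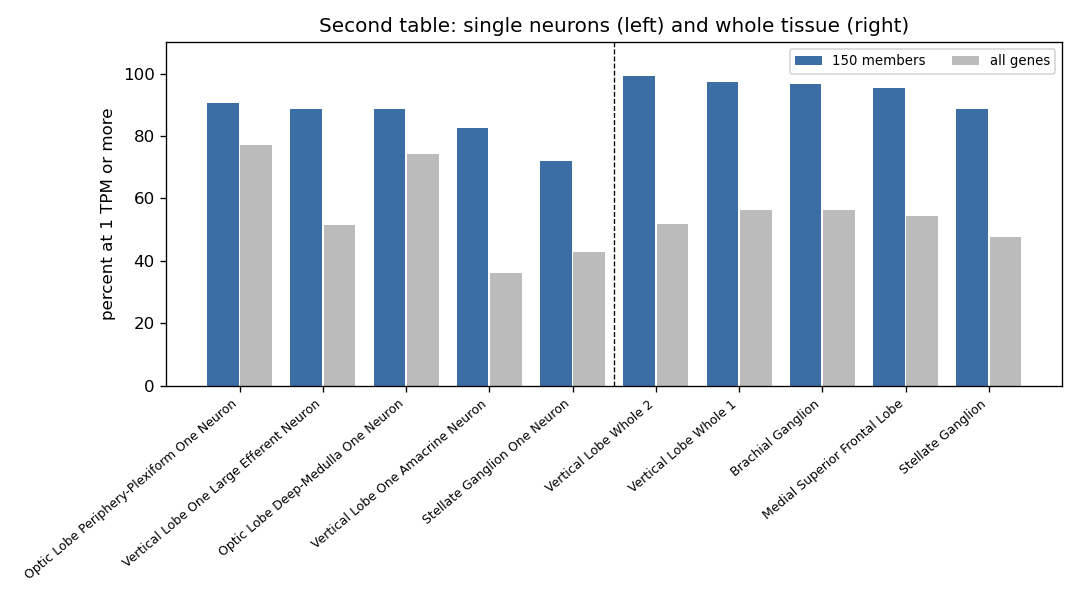
Percent of the 150 members and of all genes at 1 TPM or more in each library of the second table, single neurons on the left and whole tissue on the right. Members run from 72.0% to 90.7% in neurons and from 88.7% to 99.3% in whole tissue.

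The members of highest mean level over the 5 neurons were LOC106880967, LOC106879196, the non-coding LOC106871385, LOC106870014 and LOC106875521. LOC106880967 ran from 291 TPM in the medulla neuron to 3930 TPM in the stellate ganglion neuron. LOC106879196 held 154 to 1060 TPM and was among the 4 members of smallest span over the 15 neural tissues of the plate. LOC106876030, which was low in peripheral tissue on the plate, was at 2038 TPM in the large efferent neuron, 1030 TPM in the amacrine neuron and 0 in the stellate ganglion neuron. LOC106869569 was at 2071 and 3756 TPM in the efferent and amacrine neuron of the vertical lobe and at 2.42 TPM in the stellate ganglion neuron. Each value is from 1 cell, and the reads of a neuron, 99913 to 542147 as a lower bound, limit what a 0 can show.

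Non-coding RNA was more common among the members than among genes at large. Of 150 members, 25 are non-coding by the transcript accession in the table, 16.7%, against 8.81% of all 17527 genes and 5.32% of the 5550 genes with a neural lower quartile no lower than the lowest member's. The choice of members was not made on this property, and no test was run. Non-coding members had a median mean neural level of 132 TPM and coding members of 67.5 TPM. Regional calls fell on both kinds: 9 of 25 non-coding and 44 of 125 coding members differed among the 15 neural tissues. None of the 12 members higher in vertical lobe was non-coding.

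In the reference table, 134 of 150 members were matched, and 35 overlap another gene there. Since the submitters' notes do not say whether counting used strand, reads of overlapping genes may be shared. Neighbouring members were few: LOC106882363 with LOC106882364 and LOC106879921 with LOC106873666, neither pair overlapping. Across the 21 neural tissues the levels of these pairs had Pearson correlations of 0.82 and 0.56, given as a description of tissues that share libraries and depth. Over all pairs of members, the median correlation across 45 neural libraries was 0.34, and 0.11 across the 43 without the libraries set apart.

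Of the named sequences in the same fits, GNRH and VLPep3 were lower in vertical lobe, with log2 differences of -3.02 (adjusted p = 0.000401 by limma) and -4.80 (0.00274). In retina, Sp12 was higher (3.42, adjusted p = 0.0135 by limma). The named sequences tested in the optic lobe and peripheral comparisons were not called. All these results are from the main fits, which did not take label style into account.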

How the data were processed

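The deposited values are TPM, made by the authors and summing to a fixed total per library with 92 spike-in entries included. Per the submitters' processing notes, Trimmomatic 0.32, STAR 2.3, featureCounts and edgeR 3.14.0 were used; what each was used for is not stated there, and the build is not given in the sources used here. Spike-ins were dropped, columns rescaled, and each gene given its transcript of highest mean. Members, gene lists, named genes and libraries set apart were chosen with earlier results of these data known. Differences were tested with limma 3.58.1 (R 4.3.3), with a trend, on log2(TPM + 1), which understates the change of low genes. P-values were adjusted by Benjamini-Hochberg over all genes at 1 TPM in at least 3 of 45 neural libraries or 2 of 15 non-neural ones. Each tissue weighed equally on its side of a comparison. Genes were named by rule: the 10 highest scores, the 5 most abundant members, 3 on each side of the edge, up to 6 called members per direction and comparison, the 3 largest and smallest F, and the 5 leading members of non-neural tissues and of neurons; others named were chosen after their values were seen. Depth came from whole-read steps of the TPM, recovered for 15775 of 17545 genes and 147 of 150 members (tolerance 0.05 read). The scripts were tested on simulated data. The second table was scaled separately and not tested. Neighbours and overlaps came from gene positions in RefSeq assembly ASM119413v2, which are not printed here. The coding or non-coding type came from the transcript accession.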

Additional observations from a re-analysis of the deposited data

Results flagged for a closer look

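In 19 sets of values, each of 1 quantity in 1 group of libraries, Dixon's test was used to look for a library far from the others, which chance alone meets in about 1 in 20 groups. There were 4 such values, and 3 of them came from the library labelled stellate ganglion 1. Its summed member TPM was 481, against 13935 to 20291 TPM in the other 5 peripheral libraries. It had 50 members at 1 TPM or more, against 137 to 149. Its level of LOC106869047 was 3.79 TPM, against 40.6 to 80.1 TPM. The remaining value was plexiform periphery 1 of the optic lobe, with 139 members at 1 TPM or more against 146 to 149 in the other 5 optic lobe libraries; it had 294854 recovered reads and 85.1% spike-in, and the part of depth in this was not tested.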

How the results depend on the processing

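The counts of members called depended most on label style and on single libraries. With style as a covariate, 28 members differed among neural tissues, 20 were called in vertical lobe, 2 in optic lobe and 1 in peripheral tissue. Within ObRNA names alone, which also left out some of the other central lobes, 1 was called in vertical lobe. With TPM as deposited, vertical lobe had 24, optic lobe 2 and retina 6. Optic lobe had 3 with a pseudocount of 0.5, with quantile scaling, with median ratio scaling and with the letter of the sample name as a block, and retina had 7 with quantile scaling. Without the libraries set apart, optic lobe had 10 and retina 33. Limma's voom on recovered reads, chosen after seeing the data, called 90 in peripheral tissue and 30 in retina, with all-gene medians of -0.23 and 1.26. The cause of these changes was not tested. Rescaling over 1 transcript per gene, also chosen after seeing the data, gave 33, 4, 35 and 15.

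Leaving out single libraries gave 45 to 64 members differing among neural tissues (main 53), 30 to 43 in vertical lobe (37), 2 to 7 in optic lobe (5), 17 to 46 in peripheral tissue (36) and 8 to 42 in retina (15). Retina had 26 without chromatophores 2, of which 4 were lower. Optic lobe had 2 or 3 without any 1 of its own 6 libraries and 3 without subvertical lobe 2 or dorsal basal lobe 3. Each left-out library kept 134 to 150 of the 150 members by the rule. Other choices in the rule kept 122 to 146, and medians in place of quartiles kept 98.

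Deviations of same-numbered libraries had a median correlation of -0.018, against 0.0017 for libraries of different number. For the letter of the sample name it was 0.025 within a letter and -0.020 between letters. Whether libraries share an animal cannot be read from these values. With the replicate number as a block, the counts were 52, 37, 5, 36 and 13. With the letter as a block, 52 members differed among neural tissues, 39 were called in vertical lobe, 3 in optic lobe and 41 in peripheral tissue. None of the members named by the rule for a comparison changed its direction in that comparison's alternatives. The precision of a level is limited by depth.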
